A study of Mus musculus with 18 samples.

Results

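The Schlafen genes are a mouse family clustered on chromosome 11, and 7 of them were measured here: Slfn1, Slfn2, Slfn3, Slfn4, Slfn5, Slfn8 and Slfn9. Members were taken by symbol from probe sets that the array's annotation assigns to 1 gene, keeping the probe set with the highest mean; each of the 7 had 1 such probe set, among 19938 genes with one. The family was picked because Slfn1 went opposite ways with parity in the 2 genotypes. The values of Slfn1 in the parity comparisons, and between KO mice without and WT mice with metastasis, are therefore given as descriptions with no test. So are those of all 7 members in the difference between the parity comparisons.

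RNA came from mammary tumours of mice with the ErbB2 protooncogene under the MMTV promoter, which is active in mammary epithelium (strain FVB/N-Tg(MMTVneu)202Mul/J), crossed with Snai2-deficient B6;129S1-Snai2tm2Grid/J mice. All 6 groups carry the ERBB2 transgene and have a tumour described as luminal. Mice lacking Snai2 (KO) that were parous gave 3 arrays where metastasis was present, counted as 2 samples, and 3 where it was absent. Nulliparous KO mice gave 1 array with metastasis and 3 without. Mice with intact Snai2 (WT), all of which had metastasis, gave 4 arrays in the parous and 4 in the nulliparous group. Snai2 is a zinc finger transcription factor of the Snail family; parous mice have borne young and nulliparous mice have not. Ages and the strain background of the crossed mice are not given in the sources used here. No WT mouse lacked metastasis, so a KO mouse without metastasis differs from every WT mouse in both genotype and metastasis status.

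Schlafen proteins occur in short, intermediate and long forms, of which the long ones carry a helicase-like region. Several are induced by type I interferon, which acts through its receptor, the kinases Jak1 and Tyk2 and transcription factors that include Stat2 and Irf9 and bind interferon-stimulated response elements in promoters. Schlafen genes are best known from immune cells: Slfn1 restrains T cell growth when overproduced, Slfn2 keeps T cells quiescent, and Slfn4 is expressed in myeloid cells. Slfn3 has been studied in rat intestinal epithelium, where it is linked to differentiation, and human SLFN5 can act as a transcriptional corepressor.

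Values are log2 expression after RMA, a method that corrects background, makes the arrays' distributions alike and summarises the probes of each probe set; a log2 difference of 1 is a doubling. Array medians lay between 7.60 and 7.67. In the parous KO group with metastasis, replicates 2 and 3 were nearly the same, with an SD of their difference of 0.102 against 0.285 for the next closest of 153 pairs, and were averaged to 1 sample, which left 17 samples. Snai2 ranged from 6.28 to 6.79 in KO tumours and from 6.68 to 7.09 in WT tumours, ranges that overlap, and whether its probe set lies in the deleted part was not tested. Erbb2 ranged from 12.62 to 12.91 in KO and from 12.45 to 12.92 in WT tumours. The epithelial genes Krt8, Krt18 and Epcam stood at or above the 99th percentile of genes on every array. Because whole tumours were measured, fewer cells of a type and less RNA per cell cannot be told apart.

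Along chromosome 11 the order of the genes was Slfn5, Slfn9, Slfn8, Slfn2, Slfn1, Slfn4 and Slfn3 in RefSeq (GRCm38.p6), with the pseudogene Slfn10-ps between Slfn8 and Slfn2. The 250 bases before each annotated start were searched on both strands for the core of the interferon-stimulated response element, spelled GAAANNGAAA, and for the gamma-activated sequence, spelled TTCNNNGAA; the patterns were counted separately. The response element core was found before Slfn5, Slfn8 and Slfn9 and not before the other 4 members, against 2.98% of 32851 promoter windows and 3.46% of 27025 genes in the same RefSeq table. Among genes of the interferon lists described with the results it was found in 9 of 19 interferon-stimulated genes and 3 of 18 signalling genes with a promoter in the table. No member held the gamma-activated sequence, which was present in 7.02% of windows. Such a match describes letters and is not evidence of binding.

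The promoters of Slfn1, the gene for which the family was picked, and of Slfn2, the member that passed the test in WT mice, are shown with those that hold the core, whose match is in capitals. They are the 250 bases before the start on the gene's own strand, at chr11:83116570-83116819 (Slfn1, plus strand), chr11:83064862-83065111 (Slfn2, plus), chr11:82951852-82952101 (Slfn5, plus), chr11:83020811-83021060 (Slfn8, minus) and chr11:82991831-82992080 (Slfn9, minus), all GRCm38.p6.
Slfn1: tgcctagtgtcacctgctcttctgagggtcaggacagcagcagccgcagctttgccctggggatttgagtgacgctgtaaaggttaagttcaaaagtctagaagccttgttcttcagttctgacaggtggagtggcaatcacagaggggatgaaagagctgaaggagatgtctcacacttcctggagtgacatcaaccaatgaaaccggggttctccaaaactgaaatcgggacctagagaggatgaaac
Slfn2: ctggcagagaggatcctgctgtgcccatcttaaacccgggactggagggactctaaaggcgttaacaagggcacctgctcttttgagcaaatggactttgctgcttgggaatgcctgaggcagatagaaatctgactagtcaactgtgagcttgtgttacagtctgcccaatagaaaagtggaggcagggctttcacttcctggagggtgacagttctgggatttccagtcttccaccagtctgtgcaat
Slfn5: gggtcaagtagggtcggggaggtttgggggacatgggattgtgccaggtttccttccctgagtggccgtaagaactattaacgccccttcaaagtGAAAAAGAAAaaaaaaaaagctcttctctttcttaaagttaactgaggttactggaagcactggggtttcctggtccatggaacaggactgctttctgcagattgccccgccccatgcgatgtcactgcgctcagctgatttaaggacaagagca
Slfn8: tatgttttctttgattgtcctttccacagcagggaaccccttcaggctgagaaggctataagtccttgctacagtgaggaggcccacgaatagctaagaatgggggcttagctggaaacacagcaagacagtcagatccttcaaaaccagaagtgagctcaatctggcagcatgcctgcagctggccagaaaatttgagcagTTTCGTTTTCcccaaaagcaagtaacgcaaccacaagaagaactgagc
Slfn9: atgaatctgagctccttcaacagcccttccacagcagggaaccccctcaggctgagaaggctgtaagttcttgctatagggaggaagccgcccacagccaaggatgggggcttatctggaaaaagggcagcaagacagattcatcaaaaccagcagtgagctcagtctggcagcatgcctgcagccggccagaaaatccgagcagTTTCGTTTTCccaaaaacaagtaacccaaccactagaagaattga
With the base before the start counted as -1, the match in Slfn5 lay on the gene's strand at -155 to -146. In Slfn8 and Slfn9 it lay on the opposite strand, at -48 to -39 and -45 to -36, with the same 10 letters. Slfn8 has a second annotated start in the table, from which the same match lies at -136 to -127. The Slfn9 window and the Slfn8 window printed here were also the most alike of the 21 pairs, at 80.2% identity, against 53.4% for the next pair.

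**Figure D1:**
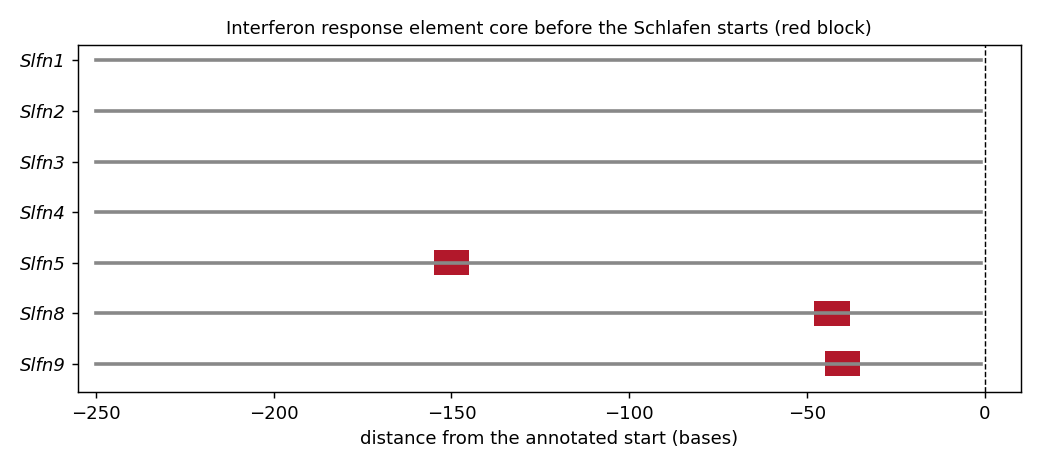
Position of the interferon-stimulated response element core (red block) in the 250 bases before the annotated start of each Schlafen gene; the horizontal axis is the distance from the start in bases. For Slfn8 the first of its 2 annotated starts is drawn. Slfn5, Slfn8 and Slfn9 hold a match, and the other 4 windows are without one.

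Slfn1, a short family member, had its highest log2 values in nulliparous WT tumours. It read 6.11 and 6.21 in KO parous mice with metastasis, 6.27, 6.48 and 6.16 in KO parous mice without metastasis, 6.98 in the single KO nulliparous mouse with metastasis, and 6.09, 6.07 and 5.85 in KO nulliparous mice without metastasis. In WT mice it read 6.12, 6.49, 6.19 and 6.11 after pregnancy and 7.22, 6.69, 7.20 and 7.28 in nulliparous mice. The WT groups did not overlap, and neither did the KO groups without metastasis, where the parous samples were the higher ones. The parous minus nulliparous difference was 0.30 (SE 0.15) in KO mice without metastasis and -0.87 (SE 0.13) in WT mice, a level 1.83-fold lower in parous WT mice. Slfn1 was a dim gene, between the 16.5th and 38.5th percentile of genes on its array, where RMA compresses differences.

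Slfn2, another short member, showed the widest separation between the WT groups. Its log2 values were 8.43 and 8.77 in KO parous mice with metastasis, 8.36, 9.41 and 8.03 in KO parous mice without metastasis, 10.16 in the KO nulliparous mouse with metastasis, and 9.26, 7.62 and 8.56 in KO nulliparous mice without metastasis. In WT tumours, parous mice had 8.83, 9.21, 7.87 and 7.99 and nulliparous mice 10.72, 9.80, 10.39 and 10.41. All WT nulliparous samples lay above all WT parous ones, whereas the KO groups without metastasis overlapped. WT nulliparous mice had the highest mean, the single KO mouse with metastasis came second, and the ranges of the 4 lower groups overlapped from each to the next. Slfn2 was 3.62-fold lower in parous than in nulliparous WT mice, a log2 difference of -1.86 (SE 0.40, limma adjusted p = 0.0339). In KO mice without metastasis the log2 difference was 0.12 (SE 0.46, limma adjusted p = 1).

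Slfn8, a long member, followed Slfn2 closely. Its log2 values were 7.28 and 7.89 in KO parous mice with metastasis, 7.11, 8.69 and 7.19 in KO parous mice without metastasis, 9.04 in the KO nulliparous mouse with metastasis, and 8.07, 6.45 and 7.74 in KO nulliparous mice without metastasis. In WT tumours, parous mice had 8.02, 8.13, 7.49 and 6.65, and nulliparous mice had 9.43, 8.71, 9.35 and 9.43. The WT groups were apart, and the log2 difference of -1.66 (SE 0.44) did not pass the test (limma adjusted p = 0.0687).

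Slfn5, a long nuclear member, had a wide spread in KO parous mice without metastasis and in WT parous mice. It read 8.25 and 8.25 in KO parous mice with metastasis, 7.82, 9.53 and 8.13 in KO parous mice without metastasis, 9.57 in the KO nulliparous mouse with metastasis, and 8.25, 7.61 and 8.49 in KO nulliparous mice without metastasis. In WT tumours, parous mice had 9.33, 9.36, 7.76 and 8.18, and nulliparous mice had 10.63, 9.41, 9.73 and 9.44. The highest WT parous sample lay just below the lowest WT nulliparous one, and the log2 difference was -1.15 (SE 0.44, limma adjusted p = 0.205).

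Slfn4, an intermediate member, and Slfn9, a long one, had smaller differences on the log2 scale. Slfn4 was also dim, at percentiles 25.5 to 41.3 of genes on its array, against 49.1 to 71.5 for Slfn9. Slfn4 averaged 6.65 ± 0.16 in parous and 7.30 ± 0.17 in nulliparous WT mice (SD, n = 4 each), with a limma adjusted p of 0.0579. In KO mice without metastasis Slfn4 averaged 6.96 ± 0.38 in parous and 6.64 ± 0.27 in nulliparous mice (SD, n = 3 each). Slfn9 averaged 8.64 ± 0.22 in parous and 9.36 ± 0.19 in nulliparous WT mice (SD, n = 4 each), with a limma adjusted p of 0.134. In KO mice without metastasis it averaged 8.79 ± 0.60 in parous and 8.81 ± 0.25 in nulliparous mice (SD, n = 3 each). For both genes the WT groups did not overlap and the KO groups did.

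Slfn3, an intermediate member, differed little between the WT groups. It averaged 7.62 ± 0.21 in parous and 7.44 ± 0.10 in nulliparous WT mice (SD, n = 4 each; limma adjusted p = 0.705), against 7.75 ± 0.50 in parous and 7.43 ± 0.14 in nulliparous KO mice without metastasis (SD, n = 3 each). Every neighbouring pair of groups in the order of its means overlapped. Its highest value, 8.28, was in replicate 2 of the KO parous mice without metastasis.

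**Figure D2:**
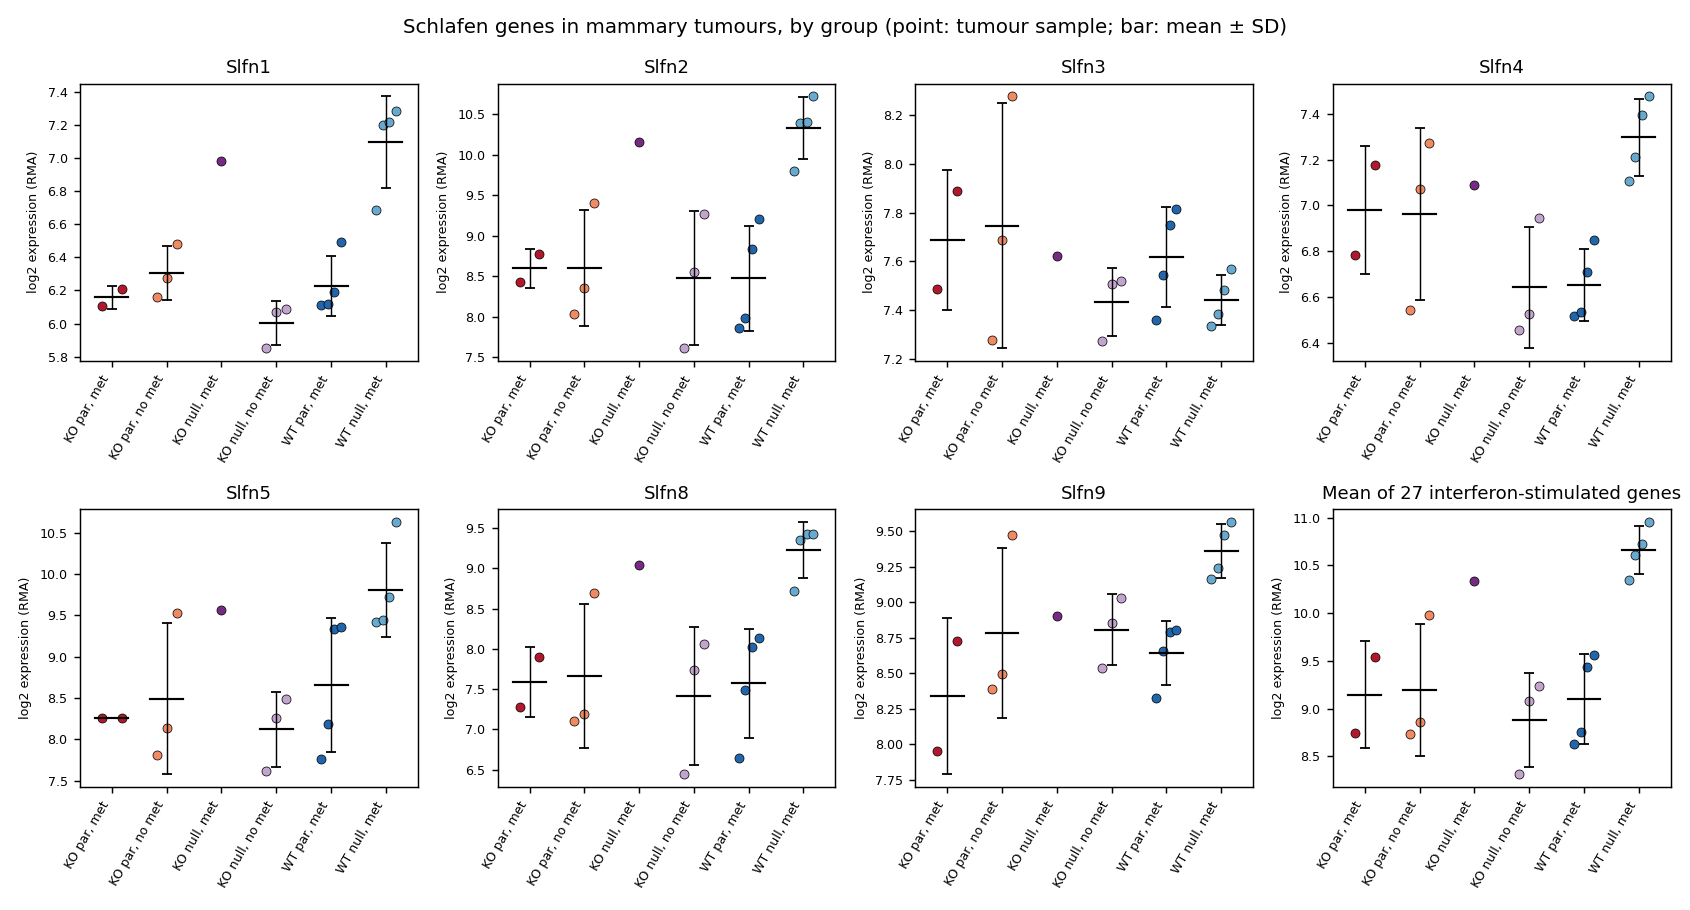
Log2 expression (RMA) of the 7 Schlafen genes and the mean of 27 interferon-stimulated genes in the 6 groups; each point is a tumour sample and bars are the mean ± SD. WT nulliparous samples are the highest group for all genes but Slfn3, and the single KO nulliparous mouse with metastasis is second in the same 6.

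Apart from Slfn1, whose parity values are part of the rule, WT nulliparous mice had the highest mean in 5 of the 6 other members, and in the same 5 their values did not overlap those of WT parous mice. Of the 19938 genes, 12.6% had WT groups that did not overlap in either direction and 7.63% were without overlap and lower in parous mice. Of the 6 members tested, 1 passed, against 2.4% of all genes called in either direction and 1.86% called lower. The median log2 difference of these 6 was -0.93, against -0.01 over all genes; with Slfn1, whose own value is then the median, it was -0.87. The Slfn2 call rested on single samples: without WT parous replicate 1, 3 or 4 its limma adjusted p was 0.0545, 0.106 or 0.102, and without WT nulliparous replicate 1, 3 or 4 it was 0.102, 0.059 or 0.105. Leaving out KO parous metastasis-free replicate 2, a sample that enters only through the shared spread, gave 4 called members, with limma adjusted p-values of 0.017 for Slfn2, 0.0343 for Slfn4, 0.0309 for Slfn8 and 0.0398 for Slfn9. A single further member passed without KO parous metastasis-free replicate 3 (Slfn4, 0.0335) or KO nulliparous metastasis-free replicate 2 (Slfn8, 0.0469).

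In KO mice without metastasis no member passed for parity, nor did any of the 19938 genes (0%; 655 had an unadjusted limma p under 0.05). The median log2 difference of the 6 members other than Slfn1 was 0.28, against 0.01 over all genes, and 5 of the 6 were above 0; with Slfn1, whose own value is then the median, it was 0.30. The log2 difference was 0.37 (SE 0.51) for Slfn5, 0.32 (SE 0.19) for Slfn4, 0.31 (SE 0.20) for Slfn3, 0.25 (SE 0.51) for Slfn8 and -0.02 (SE 0.27) for Slfn9, each with a limma adjusted p of 1. None of the 6 had KO groups that did not overlap, as 6.04% of all genes did; those of Slfn1 did not overlap, which the rule used. These differences leaned on replicate 2 of the parous mice, which was the highest of its group, and of the 8 KO samples other than the single nulliparous mouse with metastasis, in 7 of 7 members. The share of all genes in which this sample was the highest was not counted. The same sample was the highest KO sample in 7 of the 12 cell type lists described below. Without it the median over all 7 was -0.15, and Slfn2, Slfn5 and Slfn8 had differences of -0.28, -0.15 and -0.27. Without KO nulliparous replicate 2, Slfn2 and Slfn8 had differences of -0.31 and -0.24.

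**Figure D3:**
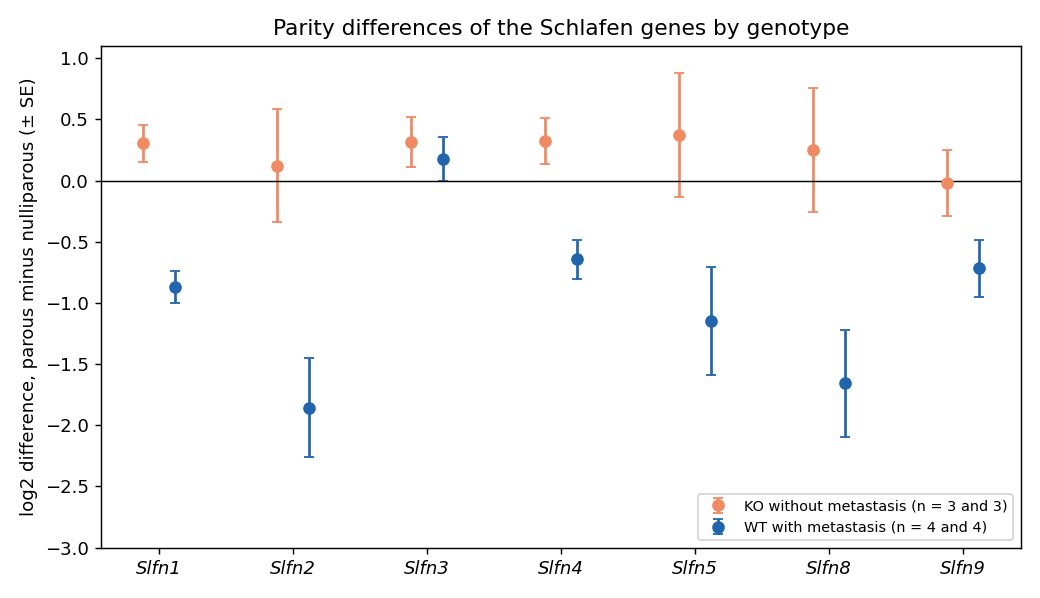
Log2 difference, parous minus nulliparous, of each Schlafen gene in KO mice without metastasis (orange, 3 against 3) and in WT mice with metastasis (blue, 4 against 4); bars are the SE of the limma fit. The WT difference is below 0 for all members but Slfn3, and the KO difference lies between -0.02 and 0.37.

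The parity difference in KO mice minus that in WT mice was above 0 for all 7 members. These include Slfn1, whose value of this difference chose the family. Of all genes, 45.1% had a value below 0. On the log2 scale the difference was 1.98 (SE 0.61) for Slfn2, 1.90 (SE 0.67) for Slfn8, 1.52 (SE 0.67) for Slfn5 and 1.17 (SE 0.20) for Slfn1. It was 0.97 (SE 0.25) for Slfn4, 0.70 (SE 0.36) for Slfn9 and 0.14 (SE 0.27) for Slfn3. Without KO parous metastasis-free replicate 2 it was -0.126 for Slfn3. Because every WT mouse had metastasis and these KO mice had none, genotype and metastasis status cannot be told apart in this difference.

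Among nulliparous mice, KO tumours without metastasis were set against WT tumours with metastasis, a comparison that shares the WT nulliparous samples with the WT parity comparison. Slfn1 differed by -1.10 (SE 0.14), a value given with no test. The log2 difference was -1.85 (SE 0.43, limma adjusted p = 0.0897) for Slfn2, -1.81 (SE 0.47, 0.129) for Slfn8 and -1.68 (SE 0.475, 0.151) for Slfn5. It was -0.66 (SE 0.18, 0.133) for Slfn4, -0.55 (SE 0.25, 0.394) for Slfn9 and -0.01 (SE 0.19, 0.993) for Slfn3. None of the 6 tested members passed, against 0.246% of all genes. In 5 of the 6 members other than Slfn1 every one of these KO samples lay below every one of these WT samples, while 12.8% of all genes did not overlap in either direction and 6.8% did so with KO lower.

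In Slfn1, Slfn2, Slfn4, Slfn5 and Slfn8 the single KO nulliparous mouse with metastasis did not share the low values of the other nulliparous KO mice. It was above all 3 of those mice in 6 of 7 members, Slfn9 being the exception. It was at or above the lowest WT nulliparous sample in 5 of 7, the exceptions being Slfn4 and Slfn9. In Slfn1, Slfn2, Slfn5 and Slfn8 it exceeded the other 8 KO samples. The counts of 6 and 5 include Slfn3, where nulliparous KO mice without metastasis were not low (mean 7.43, against 7.44 in nulliparous WT mice). Both counts also include Slfn1, whose low values in nulliparous KO mice without metastasis were part of the rule. The share of all genes with such orders was not counted, so the counts describe 1 tumour and are not a result about the family. This sample had a mean of 10.34 over the 27 interferon-stimulated genes described below. The other KO samples reached 9.98, and WT nulliparous samples ran from 10.35 to 10.95. It was the highest KO sample in 4 of the 12 cell type lists: B and plasma, T and NK, dendritic cells and adipocytes. Its B and plasma cell marker mean was the highest of all samples, 7.71 against at most 6.52 in the other KO and 7 in the WT samples. Its T and NK cell mean of 6.72 was above the other KO samples, which reached 6.44, and within the WT range. The part of these cells or of interferon in its Schlafen values was not tested, and with 1 sample there is no replicate check.

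Among parous mice no difference in the family was detected. KO against WT mice, both with metastasis, had a median log2 difference over the members of 0.02 (range -0.40 to 0.33), with no member and no gene called (0%; 1142 genes had an unadjusted limma p under 0.05). KO mice with against KO mice without metastasis had a median of -0.08 (range -0.45 to 0.02), again with none called (0%; 805 genes had an unadjusted limma p under 0.05). KO mice without against WT mice with metastasis had a median of 0.13 (range -0.17 to 0.31), with no tested member and no gene called (0%). There 1149 genes had an unadjusted limma p under 0.05. Slfn1 is in this median but is given with no test, because the rule used these groups. No member's groups were apart in these 3 comparisons, where 17.9%, 14.4% and 5.84% of all genes had groups that did not overlap.

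A fit with genotype, parity and metastasis as additive terms, which assumes that parity acts alike in both genotypes, called no gene for any term (0% each), with 885, 2538 and 999 genes at an unadjusted limma p under 0.05. For parity the log2 term was -1.10 (SE 0.35, limma adjusted p = 0.209) for Slfn2, -0.94 (SE 0.365, 0.294) for Slfn8 and -0.44 (SE 0.17, 0.296) for Slfn9. It was -0.63 (SE 0.34, 0.478) for Slfn5, -0.21 (SE 0.155, 0.625) for Slfn4 and 0.21 (SE 0.12, 0.491) for Slfn3, and -0.44 for Slfn1, given with no test. The members' median was -0.16 (range -0.43 to 0.10) for genotype and 0.35 (range -0.20 to 0.76) for metastasis. Metastasis status varied only among KO mice, so these terms are partly confounded. Without the single KO nulliparous mouse with metastasis the medians were -0.32 for genotype and 0.20 for metastasis. The direct comparison by metastasis in parous KO mice had a median of -0.08. Without KO parous metastasis-free replicate 2, Slfn2 and Slfn9 passed for parity (limma adjusted p = 0.0476 and 0.0334), and without KO nulliparous metastasis-free replicate 2 Slfn2 did (0.0414).

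Before group means were removed, correlations were higher among the members other than Slfn3 than in the pairs with Slfn3. Over the 17 samples, the 15 pairs without Slfn3 had a Pearson r of 0.59 to 0.97, and 0.25 to 0.91 after the group means were removed. Slfn2 and Slfn8 were the closest pair, at 0.97 and 0.91 on these measures. The 6 pairs with Slfn3 had r between -0.14 and 0.07, and 0.03 to 0.50 after the group means were removed, a range that overlaps that of the other pairs. All pairs share the arrays and their normalization, so these values are a description.

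The genes outside the family with the most similar pattern differed between members. For Slfn2 they were Parp12, Parp14 and Rnf213 (r = 0.99, 0.98 and 0.97 over 17 samples), and for Slfn8 they were Irf7, Oasl2 and Ifit1 (0.98, 0.97 and 0.97). Slfn4 was nearest to Epsti1, Parp9 and Dhx58 (0.87, 0.87 and 0.85), and Slfn1 to Ms4a4c, Adar and H2-M3 (0.94, 0.94 and 0.925). Slfn5 was nearest to Hpse, Wdfy4 and Lmo2 (0.95, 0.95 and 0.94). Slfn9 was nearest to Cdyl2, Plxna1 and Cdhr1 (0.91, 0.905 and 0.89), and Slfn3 to Mamld1, Ndp and Smndc1 (0.81, 0.80 and 0.80). By ranks (Spearman rho) the values were 0.63 to 0.72 for the Slfn3 genes and 0.79 to 0.81 for the Slfn1 genes. They were 0.84 to 0.985 for the genes of the other members. These genes were picked for the highest r among all genes outside the family, which by itself favours high values. Their r is therefore a description.

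Interferon-stimulated genes were counted beside the family from a list of 32, of which 27 were measured. In WT mice 16 of the 27 were called lower in parous mice and none higher, against 1.86% of all genes called lower. All 27 log2 differences were below 0, with a median of -1.49. The largest falls were of Oas2, which makes the signal that activates RNase L (-2.85, SE 0.59, limma adjusted p = 0.0283), and Zbp1, a sensor of Z-form nucleic acid (-2.17, SE 0.43, limma adjusted p = 0.0251). In KO mice without metastasis none of the 27 passed, and the median was 0.30. Among nulliparous mice 7 were called lower in KO tumours without metastasis than in WT tumours with metastasis. Of all genes 0.246% were called there in either direction. All 27 differences were below 0, with a median of -1.75. Among the 7 called were Mx2, an antiviral GTPase (-2.07, SE 0.35, limma adjusted p = 0.042), and Rtp4 (-1.775, SE 0.28, limma adjusted p = 0.0385).

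Of 19 measured genes of interferon signalling, 4 were called lower in parous WT mice and none higher, against 1.86% of all genes called lower. Of the 19, 17 were below 0, and the median was -0.25. Usp18, a feedback inhibitor of the type I receptor, differed by -2.07 (SE 0.42, limma adjusted p = 0.0271) and Stat2 by -1.65 (SE 0.23, limma adjusted p = 0.00707); Jak1 and Irf9 were the others. None passed in KO mice, where the median was 0.08. Among nulliparous mice 3 were called lower in KO tumours, Usp18 (-2.49), Stat2 (-1.70) and Irf9 (-0.775), and 15 of the 19 were below 0. Of all genes 0.246% were called there in either direction. Both interferon lists were assembled with earlier results of these tumours known and are not independent evidence of a direction.

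Genes beside the cluster were counted as well. Of the 10 on each side, none of the 20 passed in any comparison, and their median log2 difference with parity in WT mice was 0.04. Slfn5os, an antisense neighbour of Slfn5, ranged from 5.94 to 6.18 in KO and from 5.83 to 6.10 in WT tumours. The pseudogene Slfn10-ps ranged from 7.31 to 8.88 in KO and from 7.43 to 8.84 in WT tumours. Members of such a family can share probe sequence, and cross-hybridization between them was not tested.

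Markers of other cell types were set beside the family, and their part in its differences was not tested. For 6 pan-leukocyte genes the mean log2 level was 8.31 to 8.48 in KO parous mice with metastasis, 8.27 to 9.44 in KO parous mice without metastasis, 9.17 in the KO nulliparous mouse with metastasis, 7.92 to 8.62 in KO nulliparous mice without metastasis, 8.24 to 8.81 in WT parous and 8.71 to 9.55 in WT nulliparous mice. None of the 6 passed with parity in WT mice, all 6 were below 0 and their median difference was -0.61. KO parous metastasis-free replicate 2, the sample that was high in all members, was the highest KO sample in 7 of the 12 cell type lists. Its means there were 9.44 for pan-leukocyte, 9.85 for macrophage, 7.505 for neutrophil, 10.42 for fibroblast, 9.865 for endothelial, 8.44 for basal and 11.95 for luminal markers. It was not the highest KO sample for T and NK cell (6.33), B and plasma cell (6.52), dendritic cell (6.72), adipocyte (7.20) or skeletal muscle markers (8.61). Its interferon-stimulated gene mean was 9.98, below the KO nulliparous mouse with metastasis (10.34) and above the other KO samples, which reached 9.54. What made this sample high was not tested.

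For 13 macrophage and monocyte genes none passed in WT mice and the median difference with parity was -0.55; their mean was 8.56 to 9.52 in parous and 9.15 to 9.57 in nulliparous WT mice. Of 15 T and NK cell genes 2 were called lower in parous WT mice, Nkg7 (-1.485) and Ncr1 (-0.40), against 1.86% of all genes. The median was -0.29, and 14 of the 15 were below 0. Their mean level was 6.35 to 6.48 in parous and 6.51 to 7.43 in nulliparous WT mice. No marker passed in WT mice among 7 of B and plasma cells (median -0.13), 10 of neutrophils (0.07), 6 of dendritic cells (-0.10) or 12 of luminal epithelium (-0.06). Likewise none passed among 7 basal (-0.003), 6 fibroblast (-0.79), 5 endothelial (-0.19), 5 adipocyte (-0.48) or 5 skeletal muscle markers (-0.67). In KO mice and in the nulliparous comparison no marker of these 12 lists passed.

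**Figure D4:**
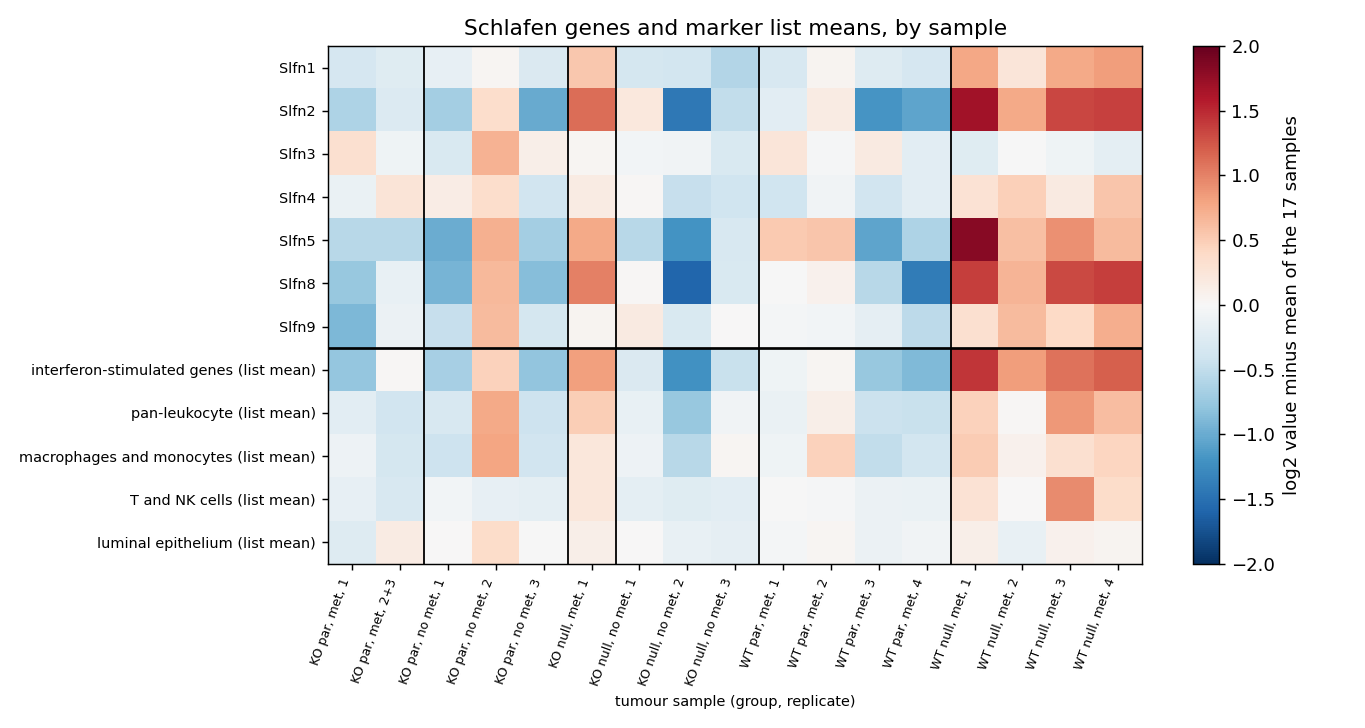
Log2 value minus the mean of the 17 samples (colour) for the 7 Schlafen genes and the means of 5 gene lists, with tumours in columns by group and replicate. KO parous metastasis-free replicate 2 is above the mean in all members and in the interferon-stimulated, pan-leukocyte, macrophage and luminal lists. It is below the mean in the T and NK cell list. The WT nulliparous columns are above the mean in all members but Slfn3.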

How the data were processed

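Tumour RNA was extracted with Trizol, fragmented and labelled with biotin for arrays of whole transcripts, as the labels' protocols state. The deposited table holds the authors' log2 values; the submitters' processing notes name RMA and oligo without a version. Of 35556 probe sets, the annotation gave 21789 a single gene, 1621 more than 1 and 12146 none; for each of 19938 genes the brightest one-gene probe set was kept. Arrays have no read depth, and their number limits the precision. The near-identical pair of arrays was averaged before fitting. Tests were made in limma 3.58.1 (R 4.3.3; lmFit and eBayes, 2-sided) on 6 group means, or additive terms, with Benjamini-Hochberg adjusted p under 0.05 over all genes. The fit was tested on simulated data. Named genes were the 7 members, the 3 genes most like each, and the 2 largest rises and falls among passing genes of each interferon list; Jak1, Irf9, Nkg7 and Ncr1 were named after their values were seen. Members and lists were chosen with earlier results of these data known. Promoters are RefSeq's for GRCm38.p6. No batch is given in the labels.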

Additional observations from a re-analysis of the deposited data

Results flagged for a closer look

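Among the 14 sets of 4 WT samples examined for a sample far from the others, replicate 2 of the WT nulliparous mice stood out in 2: in Slfn1 its gap to the next sample was 0.859 of the group's range, and in Slfn8 it was 0.895. It was the lowest of its group in both, at 6.69 and 8.71. Chance alone gives such a gap in about 1 in 20 sets. All 14 sets come from the same 8 WT samples and are not independent, so this rate does not say how unusual the 2 gaps are together.

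For Slfn1, every parous WT sample was below every nulliparous WT sample and every parous KO sample without metastasis was above every nulliparous one. The parity difference in KO minus that in WT mice was 1.175 on the log2 scale, and this difference chose the family and was not tested.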

How the results depend on the processing

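With parity in WT mice, keeping both near-identical arrays apart or dropping the dimmest 40% of genes called 2 members, fitting only the groups compared called 4 members and 878 genes, and leaving out 1 sample at a time called 0 to 4 members and 57 to 770 genes; the main count was 1 member and 478 genes. The 27 same-numbered pairs of samples correlated between -0.315 and 0.407 after group means were removed, with 9 over 0.1. Among the parous groups the replicates numbered 2 correlated at 0.32 to 0.407, and those numbered 1 or 3 at -0.06 to 0.188. Differently numbered samples were not correlated for comparison, so these values cannot decide whether the numbers pair the tumours. With the replicate block 0 members and 212 genes were called in WT mice, where Slfn2 had a limma adjusted p of 0.0644. That block called 0 genes in the nulliparous comparison, and the genotype median of the additive fit was -0.51.

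In KO mice the parity median was -0.15 to 0.44 and 0 to 2 genes were called when 1 sample was left out, with Slfn2 at -0.31 to 0.51, Slfn5 at -0.15 to 0.71, Slfn8 at -0.27 to 0.57 and Slfn9 at -0.37 to 0.18. Normalizing by quantiles again gave Slfn9 0.008 there and Slfn3 0.039 in the nulliparous comparison. That comparison called 49 genes, 128 with the arrays apart, 1 with only the groups compared and 0 to 179 with 1 sample left out, where Slfn3 ran from -0.052 to 0.071; its members' median was -1.68 without the dimmest 40% of genes, where 5 members were left. With 1 sample left out, 0 to 17 genes were called for genotype and 0 to 5 for metastasis in parous mice, 0 to 2 for KO without against WT with metastasis in parous mice, 0 to 2 members and 0 to 369 genes for parity in the additive fit, and 0 to 1 for metastasis there. With the arrays apart that fit called 55 genes for parity and 2 for metastasis. The cause of these changes was not tested. Groups of 1 to 4 tumours limit what could be detected.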
